A study of Mus musculus and Ictidomys tridecemlineatus with 36 samples.

Results

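H3K4me3-only peaks are stretches of chromatin that carried the promoter mark H3K4me3 in the developing retina but neither H3K27ac nor H3K4me1. They were defined by measured values: a peak of the H3K4me3 list under 3000 bp wide that shared no base with an H3K27ac or an H3K4me1 peak of the same species. There were 4959 of them among 32089 H3K4me3 peaks and among 532904 peaks of all 10 lists. Mouse had 1503 of 14069 H3K4me3 peaks (10.7%) and the 13-lined ground squirrel (13LGS), a cone-dominant diurnal rodent, had 3456 of 18020 (19.2%). Every value came from CUT&RUN, in which an antibody directs a nuclease to cut DNA around its target inside isolated nuclei, so that the released fragments mark where the target sits.

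The study profiled the retina of P5 13LGS and P2 mice, stages chosen by the authors to match and rich in late progenitors and photoreceptor precursors, and asked which regulatory elements differ between the species. Retinas of 2 individuals were pooled for 13LGS and of 3 for mouse, with 500000 and 385000 nuclei per reaction. The labels name no strain, allele or treatment. The mouse lists rest on 2 libraries each for H3K4me3, H3K27ac and H3K4me1, 8 for Otx2, 4 for Neurod1 and 2 for the IgG control. All came from 2 biological replicates, and the Otx2 and Neurod1 libraries include technical replicates. The 13LGS lists rest on 1 library for each histone mark, all from the same biological replicate. They rest on 6 for Otx2, 4 for Neurod1 and 3 for IgG, from 2 biological replicates and with technical replicates among them. Each list holds a single pooled value per peak, so no value has a replicate spread, read depth is unknown, and all lists of a species share the same IgG control. The Otx2 libraries used antibodies of 2 sources, R&D Systems and Atlas Antibodies. Mouse had 4 libraries of each, and 13LGS had 4 and 2, with those from Atlas Antibodies all of a single biological replicate. Species, age, number of libraries, depth and, for Otx2, the mix of antibodies cannot be told apart in any difference between 13LGS and mouse. In mouse, 11 of 12 markers of retinal nuclei had an H3K4me3 peak at a start (*Otx2*, *Crx* and *Rax* among them), against 2 of 7 markers of pigment epithelium and 0 of the 5 microglial, 4 vascular and 5 lens markers. In the longer lists of these cell types, 1 of 12 microglial, 3 of 10 vessel and 0 of 13 lens genes had a peak.

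As background, H3K4me3 is written by SET1 and MLL complexes around the first nucleosomes of active or CpG-rich promoters. H3K27ac is placed by the acetyltransferases p300 and CBP at active promoters and enhancers, and H3K4me1 marks enhancers and the shoulders of promoters. Otx2 is the homeodomain factor that directs photoreceptor and bipolar cell fate, and Neurod1 is a basic helix-loop-helix factor of photoreceptor differentiation. RNA polymerase III, which makes tRNA, uses promoter boxes inside the tRNA gene itself, and the B box is the one bound by its assembly factor TFIIIC.

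**Figure D1:**
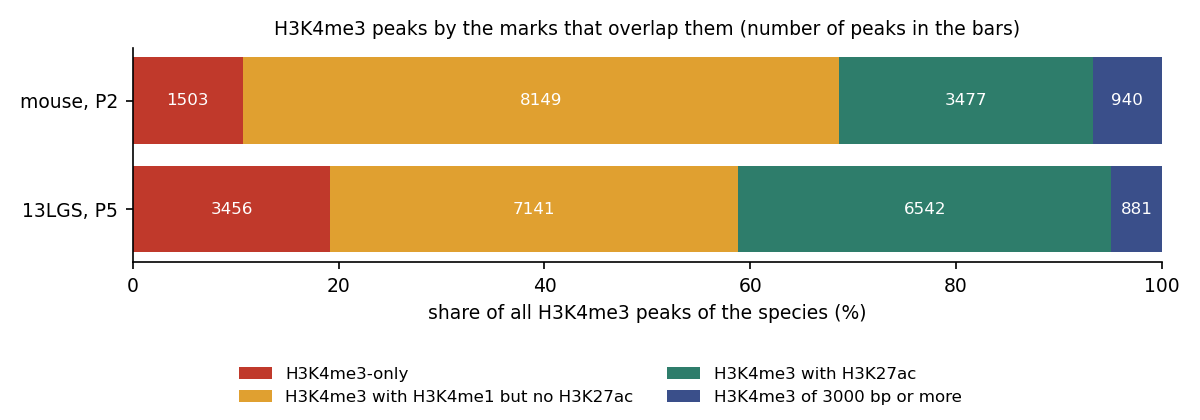
All H3K4me3 peaks of mouse (14069) and 13LGS (18020) by class, as a share of the species' peaks in percent, with the number of peaks in each bar segment. The H3K4me3-only segment covers 10.7% in mouse and 19.2% in 13LGS.

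Sequences from mouse show gene starts and tRNA genes, which are not the only kinds of place at which H3K4me3-only peaks were found. Of 1503 mouse members, 1185 were at a start, 19 had a tRNA gene but no start, and 299 had neither. At gene starts, the 300 bases from 250 before to 50 after a RefSeq start (GRCm38.p6) are given for 1 gene each of 3 housekeeping or ciliary groups, the member of its group with the strongest H3K4me3-only peak. *Rpl11* encodes a protein of the large ribosomal subunit (chr4:136053344-136053643, minus strand), *Psma1* a subunit of the proteasome core (chr7:114276067-114276366, minus strand), and *Ift52* a subunit of the intraflagellar transport train that builds cilia (chr2:163017103-163017402, plus strand). Capitals mark exact matches to the ETS family letters CCGGAAGT in *Rpl11*. In *Psma1* and *Ift52* they mark the SP and KLF family letters GGGCGG, the NF-Y letters CCAAT or, at a single place in *Psma1*, the Otx2 and Crx letters TAATCC, on either strand.
Rpl11: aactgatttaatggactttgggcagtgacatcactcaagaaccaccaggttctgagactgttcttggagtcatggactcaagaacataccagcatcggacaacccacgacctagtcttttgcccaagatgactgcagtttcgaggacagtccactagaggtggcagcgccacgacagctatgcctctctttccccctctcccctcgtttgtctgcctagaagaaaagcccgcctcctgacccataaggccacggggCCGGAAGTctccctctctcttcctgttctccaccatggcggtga
Psma1: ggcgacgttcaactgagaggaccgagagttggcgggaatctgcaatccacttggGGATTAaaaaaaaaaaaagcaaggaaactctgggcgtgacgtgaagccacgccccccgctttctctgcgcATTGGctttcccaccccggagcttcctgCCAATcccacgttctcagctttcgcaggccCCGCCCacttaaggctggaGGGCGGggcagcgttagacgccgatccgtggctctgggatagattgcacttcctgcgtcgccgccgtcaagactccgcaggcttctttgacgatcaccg
Ift52: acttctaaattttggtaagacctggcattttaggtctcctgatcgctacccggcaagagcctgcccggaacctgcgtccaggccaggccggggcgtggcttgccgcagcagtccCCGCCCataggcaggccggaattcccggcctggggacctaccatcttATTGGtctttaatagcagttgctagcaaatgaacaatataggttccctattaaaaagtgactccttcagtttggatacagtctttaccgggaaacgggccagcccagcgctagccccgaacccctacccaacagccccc

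Away from GENCODE transcript starts, the strongest H3K4me3-only peaks lay at clusters of tRNA genes. The genes below, taken from the RefSeq annotation and read in their own direction, lie inside 3 of those peaks. Capitals mark the B box where the gene holds GGTTCGA, then any 2 bases, then CC, and the tRNA-Pro gene does not hold them exactly.
n-TKctt14, tRNA-Lys, chr17:23547360-23547432, plus strand: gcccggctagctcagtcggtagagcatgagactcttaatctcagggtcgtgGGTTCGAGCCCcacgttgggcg
n-TPtgg6, tRNA-Pro, chr17:23546476-23546547, minus strand: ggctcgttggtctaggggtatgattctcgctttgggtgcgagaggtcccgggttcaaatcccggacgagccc
n-TTagt7, tRNA-Thr, chr11:69062744-69062817, minus strand: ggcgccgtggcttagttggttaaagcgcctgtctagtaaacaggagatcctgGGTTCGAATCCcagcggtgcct
n-TLcag3, tRNA-Leu, chr1:171038614-171038696, plus strand: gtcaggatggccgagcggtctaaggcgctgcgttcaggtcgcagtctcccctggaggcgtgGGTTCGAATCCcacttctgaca

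H3K4me3-only peaks were short and weak as a group, which is described without a test because width was part of how they were chosen and fold enrichment comes from the same list. In mouse their median width was 825 bp (quartiles 390 to 1218), against 1262 bp for H3K4me3 peaks with H3K4me1 but no H3K27ac and 1523 bp for those with H3K27ac. Their median fold enrichment over IgG was 8.73 (quartiles 4.26 to 16.5), against 11.4 and 17.3. In 13LGS their median width was 630 bp (quartiles 354 to 1068) and their median fold was 7.32 (quartiles 3.94 to 14.9), again below the 1017 bp and 9.83-fold of the H3K4me1 class and the 1422 bp and 17.8-fold of the H3K27ac class. The groups overlapped widely, and 263 H3K4me3-only peaks in mouse (17.5%) and 526 in 13LGS (15.2%) were above 20-fold. These shares were below the 32.5% and 32.8% of all H3K4me3 peaks and the 25.1% and 24.2% of the H3K4me1 class. At the other end, 314 in mouse (20.9%) and 562 in 13LGS (16.3%) had a −log10 q under 5. In the H3K4me1 class these shares were 11.96% in mouse and 11.82% in 13LGS, and in the H3K27ac class 9.06% and 8.99%. The authors' threshold was a q-value of 0.05, which is far less strict than a −log10 q of 5.

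The limits of the definition cut through a continuum. The widest H3K4me3-only peaks were 2963 bp in mouse (20.1-fold) and 2974 bp in 13LGS (30.8-fold), and the narrowest peaks left out for width alone were 3098 bp (24.5-fold) and 3001 bp (37.4-fold). In all, 8 peaks in mouse and 12 in 13LGS carried neither other mark but were too wide. Peaks were left out for an overlap as short as 1 bp, such as a 787 bp peak on chromosome 19 at 13.5-fold in mouse and a 1978 bp peak on Itri12 at 31.4-fold in 13LGS. Peaks as near as 0 bp to another mark, which touch it without sharing a base, were kept, such as a 1116 bp peak on chromosome 10 at 27-fold in mouse and a 1250 bp peak on Itri10 at 14.1-fold in 13LGS. An overlap under 50 bp kept 90 peaks out in mouse and 149 in 13LGS, and a gap of at most 50 bp left 101 and 107 in.

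The marks that defined absence were often near. The nearest H3K4me1 peak lay at a median of 4051 bp from an H3K4me3-only peak in mouse (quartiles 271 to 14856) and 3070 bp in 13LGS (quartiles 819 to 16023). It was within 1000 bp of 569 mouse members (37.9%) and 1024 13LGS members (29.6%), and beyond 10000 bp of 507 (33.7%) and 1135 (32.8%). H3K27ac was farther, with a median of 30174 bp in mouse and 23016 bp in 13LGS, and within 1000 bp of only 21 (1.40%) and 180 (5.21%).

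**Figure D2:**
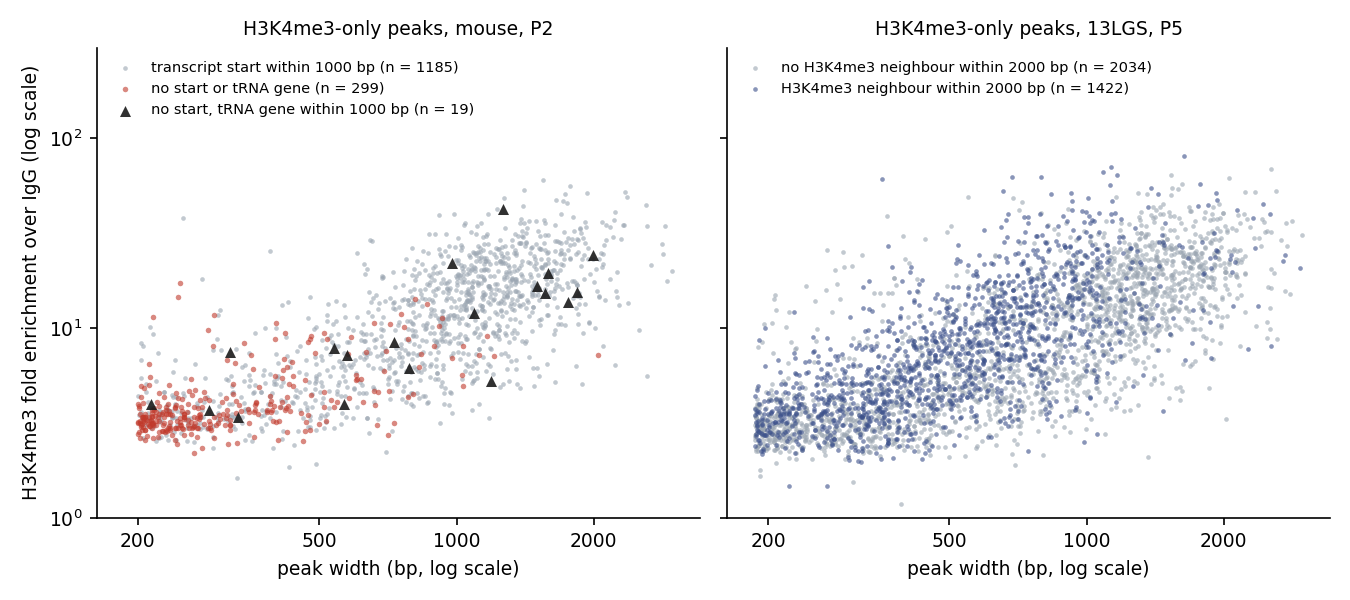
Each point is an H3K4me3-only peak, with its width in bp and its H3K4me3 fold enrichment over IgG, both on log scales. In mouse the 299 peaks with neither a transcript start nor a tRNA gene within 1000 bp gather at the narrow and weak end (median 273 bp and 3.58-fold), while those at tRNA genes reach 42.7-fold, and in 13LGS peaks with a close H3K4me3 neighbour span the range of folds.

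The 12 strongest H3K4me3-only peaks in mouse all stood at gene starts. The highest fold was at *Rpl11* (chr4:136052126-136053669), where a 1544 bp peak reached 60.0-fold. Second was *Rpl7l1*, which encodes a protein related to a ribosomal one and had a 1778 bp peak of 55.9-fold with no H3K4me1 peak for 7172 bp. *Eif3c*, a subunit of translation initiation factor 3, had 53.4-fold, and *Kpna2*, an importin that carries proteins into the nucleus, had 52.3-fold. At *Kpna2* an H3K4me1 peak began only 55 bp away, so its place in the group rests on a short gap.

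*Crebrf*, a regulator of the CREB3 factors, had a peak of 51.6-fold with the nearest H3K27ac 61332 bp away. *Srsf5*, a splicing factor, had 50.6-fold and no other mark within 22024 bp. The start shared by *Vps9d1* and *Zfp276* had 49.2-fold. *Prkrip1* had 48.3-fold with no H3K4me1 or H3K27ac for 26390 bp, and *2610507B11Rik* had 47.4-fold. *Eif4a3*, the helicase of the exon junction complex, had 46.7-fold, *Eif3i* and *Tmem234* shared a peak of 45.7-fold, and *Suz12*, a core subunit of Polycomb repressive complex 2, had 44.6-fold. All 12 of these peaks were overlapped by an Otx2 peak, at 2.81-fold to 6.61-fold, and none by a Neurod1 peak. This is near the share at strong peaks in general. In the top quintile of H3K4me3 fold, Otx2 was at 90.6% of H3K4me3-only peaks and 97.1% of others, and Neurod1 at 2.56% and 11.8%. Because these 12 were ranked by H3K4me3 fold, their distance above the mouse group's median of 8.73 follows from the choice.

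In 13LGS, for which no gene annotation was used, the strongest H3K4me3-only peaks are given by position in HiC_Itri_2. The highest was Itri2:216476063-216477698, 1636 bp wide at 80.8-fold, with no Otx2 peak and with another H3K4me3 peak 200 bp away. Next were Itri4:193814231-193815360 at 70.4-fold, Itri9:104923732-104926267 at 69.1-fold, Itri11:44816770-44817856 at 66.8-fold and Itri9:72547025-72548188 at 64.4-fold. The peak at Itri9:104923732 was the most isolated of these 5, with H3K4me1 at 48833 bp and H3K27ac at 51159 bp. Of the 12 strongest, 10 had an Otx2 peak, at 1.86-fold to 5.73-fold, and none a Neurod1 peak. In the top quintile of H3K4me3 fold in 13LGS, 73.2% of H3K4me3-only peaks had Otx2 and 2.13% had Neurod1. The 12 strongest lay on only 6 sequences, with 5 on Itri11.

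Most H3K4me3-only peaks in mouse lay at transcript starts, but fewer than among other H3K4me3 peaks. A GENCODE start was within 1000 bp of 1185 of 1503 (78.8%, 95% Wilson interval 76.7 to 80.8), against 89.1% of the other H3K4me3 peaks and 88.0% of all of them. The difference was -10.2 percentage points (95% Newcombe interval -12.4 to -8.18). These intervals and all others on shares cover the counting of peaks, not the spread between animals. Among peaks of like width the difference was not distinguishable from 0: within quintiles of peak width it was -0.47 points (interval -2.47 to 1.53). In the narrowest quintile, of 200 to 627 bp, 53.2% of H3K4me3-only peaks and 58.5% of others had a start, and in quintile 2 92.9% and 88.3%.

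Members at a start differed from the rest. The 1185 with a start had a median width of 966 bp and a median fold of 11.4, and the 318 without one had 286 bp and 3.65-fold. Of the 1185, 1107 were at a protein-coding start and 78 at a noncoding one only, most often a lincRNA (31 peaks). Starts on both strands were found at 231 (19.5%), against 24.0% of H3K4me3 peaks with H3K4me1 alone and 24.8% of those with H3K27ac.

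The mark lay downstream of the start. Among 881 H3K4me3-only peaks with coding starts on a single strand and no other gene's start on the opposite strand, the H3K4me3 summit was at a median of 182 bp downstream of the most upstream start (quartiles 119 to 307), and 89.6% were downstream. The summit was nearer to the start than in the H3K4me1 class (234 bp) and the H3K27ac class (296 bp). These peaks reached a median of 222 bp upstream and 735 bp downstream, against 288 and 986 bp in the H3K4me1 class and 374 and 1186 bp in the H3K27ac class. The shorter width was thus found on both sides.

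Genes whose starts carried nothing but H3K4me3-only peaks were shorter, and had more coding genes around them, than other marked genes, and were like coding genes at large in both. There were 1067 such protein-coding genes among 12289 with any H3K4me3 peak at a start (8.68%). Their median length was 17307 bp (quartiles 8629 to 35389), against 26423 bp for genes of the H3K4me1 class, 27394 bp for the H3K27ac class and 31524 bp for genes with a peak of 3000 bp or more. Within 50000 bp of their outermost start they had a median of 2 other coding genes (quartiles 1 to 4), against 1 in each of the other classes (quartiles 0 to 3 for the H3K4me1 and H3K27ac classes). All 21951 coding genes, marked or not, had a median length of 17403 bp and a median of 2 such neighbours. Neither length nor density entered the definition.

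Among these genes were members of most housekeeping lists, with the largest shares for the proteasome and the cilium. No gene of the retinal transcription factor list was among them, but the width limit had taken out most of that list's marked genes. Lists were read as the share of a list's marked genes whose starts carried only H3K4me3-only peaks, beside 8.68% of all 12289 marked coding genes. No test was made on a list, and Wilson intervals are given as a measure of how few genes each share rests on. The largest shares among lists with over 10 marked genes were those of the proteasome, with 8 of 32 genes (25%, interval 13.3 to 42.1), and of cilium and intraflagellar transport, with 13 of 55 (23.6%, interval 14.4 to 36.3). The list of mitochondrial ribosomal proteins had 11 of 78 (14.1%), aminoacyl-tRNA synthetases 5 of 36 (13.9%), DNA repair 8 of 64 (12.5%), cytosolic ribosomal proteins 8 of 78 (10.3%), the spliceosome 4 of 43 (9.30%), the respiratory chain 7 of 87 (8.05%) and zinc finger genes named Zfp 23 of 329 (6.99%).

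**Figure D3:**
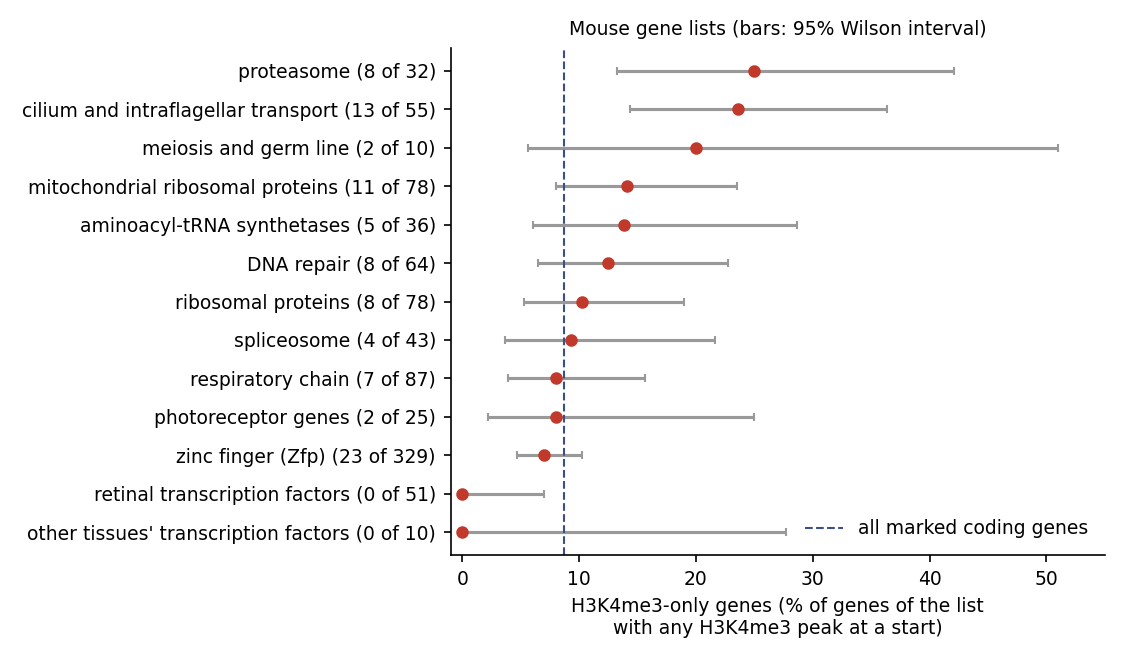
Mouse gene lists with at least 10 marked genes, with the percent of marked genes whose starts carried only H3K4me3-only peaks, the counts beside each name, and 95% Wilson intervals as bars. The dashed line is the share of all marked coding genes (8.68%), and the proteasome (25%) and cilium (23.6%) lists lie farthest above it. Of the 51 retinal transcription factor genes, 33 could not be H3K4me3-only because of the width limit.

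The proteasome degrades ubiquitin-tagged proteins. Its core subunits with H3K4me3-only starts were *Psma1* (37.5-fold), *Psmb3* (26.4-fold), *Psmb2* (23.2-fold) and *Psma4* (15.2-fold), and those of its regulatory particle were *Psmd4* (36.5-fold), *Psmd11* (36.0-fold), *Psmd13* (22-fold) and *Psmc4* (21.4-fold). All 8 were above the median of 11.4-fold of members at a start and all 8 had an Otx2 peak, at 2.42-fold to 6.15-fold. In the quintiles of H3K4me3 fold that hold these peaks, 83.8% to 90.6% of H3K4me3-only peaks had one. In 5 of the 8 no H3K4me1 or H3K27ac peak was within 1000 bp, and at *Psma1*, *Psmd11* and *Psmb2* H3K4me1 was between 235 and 287 bp away.

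In the ciliary list the intraflagellar transport subunits were *Ift52* (21.2-fold), *Ift81* (20.3-fold), *Ift20* (17.7-fold), *Ift22* (15.5-fold) and *Ift88* (9.27-fold). *Kif3b*, a subunit of the anterograde motor, had 12.5-fold, and the retrograde motor's *Wdr34* and *Dync2li1* had 9.53-fold and 6.91-fold. *Bbs1*, of the BBSome that sorts ciliary membrane proteins, had 19.2-fold. The transition zone genes *Tctn1*, *B9d2* and *B9d1* had 18.7-fold, 10.0-fold and 6.39-fold. All 13 had an Otx2 peak, at 2.36-fold at *Ift81* to 7.23-fold at *B9d2*. In the quintiles of H3K4me3 fold that hold these peaks, 69.4% to 85.2% of H3K4me3-only peaks had one. When H3K4me1 and H3K27ac had also to be absent within 1000 bp, 8 of 55 ciliary genes (14.5%), 5 of 32 proteasome genes (15.6%) and 619 of all 12289 marked genes (5.04%) were left, a setting added after the data were seen.

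The ribosomal protein list, matched by gene name, had 8 genes with H3K4me3-only starts, all above the median of 11.4-fold of members at a start: *Rpl11* and *Rpl7l1* (above), *Rpl26* (39.7-fold), *Rps2* (35.1-fold), *Rpl27* (33.5-fold), *Rplp0* (28.9-fold), *Rps25* (18.2-fold) and *Rplp1* (16.3-fold). *Rplp0* was the only one of the 8 without an Otx2 peak. In the mitochondrion, *Uqcrc1* of complex III had 44.2-fold with H3K4me1 53443 bp away, *Cox7b* of complex IV had 40.1-fold, and *Mrpl20* and *Mrpl22* of the mitochondrial ribosome had 32.5-fold and 27.3-fold. Among genes of DNA repair, the helicase gene *Brip1* had 37.2-fold, the damage kinase gene *Atr* 18.6-fold, and *Xpc*, of nucleotide excision repair, shared a 28.1-fold peak with the spliceosome gene *Lsm3*. *Tars2* and *Farsa*, which charge tRNA, had 26.4-fold and 20.1-fold, and *Snrpc*, of the U1 particle, had 31.4-fold.

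The zinc finger genes fell on both sides. *Zfp276* (49.2-fold), *Zfp747* (35.9-fold) and *Zfp408* (27.5-fold) were strong, while *Zfp641* (4.54-fold), *Zfp970* (4.4-fold) and *Zfp599* (4.28-fold) were weak. Many Zfp genes stand in clusters of similar copies, in which reads may be shared, and *Zfp934* and *Zfp935* shared a single peak of 7.86-fold.

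None of 51 marked retinal transcription factor genes had only H3K4me3-only peaks, but for 33 of them the width limit fixed this in advance. Their starts carried a peak of 3000 bp or more, such as *Rax* (159-fold), *Six3* (129-fold) and *Otx2* (64.9-fold). Of the other 18, 15 were in the H3K4me1 class and 3 in the H3K27ac class. Among all marked genes without such a wide peak, 9.49% were H3K4me3-only, and 18 genes are too few to read a lower share from their 0. The list of other tissues' transcription factors had 0 of 10, and the Hox genes (39), olfactory receptors (1092) and lens genes (13) had no H3K4me3 peak at any start. In the lists of pigment epithelium and microglia 0 of 3 and 0 of 1 marked genes were H3K4me3-only.

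Photoreceptor genes had 2 of 25, both weak: *Pde6g*, a subunit of the rod phosphodiesterase, at 3.85-fold and *Gngt2*, the cone transducin gamma subunit, at 3.07-fold, with −log10 q values of 4.90 and 2.48. The H3K4me3 summits were 667 and 862 bp from the gene's nearest start, and both peaks carried Otx2, at 4.23-fold and 5.30-fold. The germ line list had 2 of 10, *Ybx2* at 3.37-fold and *Gdf9*, whose 20.4-fold peak was shared with the respiratory chain gene *Uqcrq*, and the vessel list had 1 of 3, *Egfl7* at 3.37-fold.

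The 318 mouse H3K4me3-only peaks with no annotated start within 1000 bp fell into intergenic DNA (160), introns (112) and exons (46). Another annotation, RefSeq, placed a start within 1000 bp of 30 of them. Their strongest members lay at tRNA genes, a feature looked for after these values were seen. A RefSeq tRNA gene was within 1000 bp of 7 of the 8 with the highest fold, of 9 of the top 20 and of 13 of the top 50, against 19 of all 318 (5.97%) and 70 of the 1371 other H3K4me3 peaks without a start (5.11%). The share over all members was thus close to that of other peaks, and among members the tRNA genes were concentrated at the strong end. The other peaks were not ranked by fold, so whether this was particular to the group was not tested. Without a start, 4 of 11 peaks of 3000 bp or more had a tRNA gene, as did 6.51% of the H3K4me1 class and 2% of the H3K27ac class.

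The highest of these, chr17:23546322-23547584, was 1263 bp wide at 42.7-fold and covered the tRNA-Lys gene n-TKctt14 and the tRNA-Pro gene n-TPtgg6, shown above. The peak chr11:69062470-69064462 reached 24.2-fold over genes for tRNA-Thr, tRNA-Ser and tRNA-Trp. The peaks chr13:21974053-21975028 and chr13:23437072-23438655 reached 22.1-fold and 19.5-fold. The first of the pair ended 4 bp before a tRNA-Met gene. The remaining ones of the top 8 with a tRNA gene were chr11:58301913-58303411 (16.7-fold), chr7:98814758-98816595 (15.6-fold) and chr1:171037161-171038723 (15.4-fold). The exception, chr17:6476700-6476946, was a 247 bp peak of 17.3-fold in an intron, with no Otx2 peak.

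All 19 members at tRNA genes were intergenic by GENCODE, while RefSeq placed a start within 1000 bp of 5 of them and of 25 of the other 299. Their median width was 976 bp and their median fold 8.39 (range 3.39 to 42.7), and 17 of 19 (89.5%) had an Otx2 peak. The other 299 had a median width of 273 bp and a median fold of 3.58, 92 (30.8%) had an Otx2 peak, and 193 (64.5%) had a −log10 q under 5. The tRNA members had a CpG ratio at the summit of 0.76 (median; the number of CpG over that predicted from the C and G content), against 0.28 for the other 299 and 0.78 for members at a start, while their G and C content was 50.7%, close to the 51.7% of the 299 and below the 64.7% at starts. Of the 36 tRNA genes within 1000 bp of these peaks, 26 (72.2%) held the B box letters, against 235 of all 403 (58.3%). Identical tRNA copies occur: the printed tRNA-Lys sequence is also that of n-TKctt11 on chromosome 13, so reads inside the genes cannot be assigned to a copy, whereas the peaks extend well beyond them. Over the whole genome, an H3K4me3 peak of some class covered 142 of 403 tRNA genes (35.2%). It was of the H3K4me1 class for 61, of 3000 bp or more for 35, H3K4me3-only for 25 and of the H3K27ac class for 21.

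Otx2 was less frequent at H3K4me3-only peaks than at other H3K4me3 peaks in both species. In mouse 949 of 1503 had an Otx2 peak (63.1%, interval 60.7 to 65.5), against 78.6% of all H3K4me3 peaks, a difference from the other peaks of -17.3 percentage points (interval -19.8 to -14.8). In 13LGS 1532 of 3456 had one (44.3%, interval 42.7 to 46.0), against 62.9% of all, a difference of -23.0 points (interval -24.8 to -21.1). Against the H3K4me1 class alone the difference was -10.6 points in mouse and -7.41 in 13LGS, and against the H3K27ac class -28.3 and -36.2. Where Otx2 was present its fold was modest, with a median of 3.60 in mouse and 3.11 in 13LGS, against 3.68 and 3.17 in the H3K4me1 class and 4.39 and 3.67 in the H3K27ac class.

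Width moved with this result, since members with Otx2 were wider and stronger. In mouse members with Otx2 had a median width of 1038 bp and fold of 12.8, and members without it 375 bp and 4.07-fold. In 13LGS they had 914 bp and 11.4-fold, against 465 bp and 5.14-fold. Within quintiles of width the difference from all other H3K4me3 peaks shrank to -5.60 points in mouse (interval -7.96 to -3.24) and -7.88 in 13LGS (interval -9.72 to -6.05), and within quintiles of fold it was -10.2 and -14.6.

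By width, H3K4me3-only peaks stood near the H3K4me1 class, and below the H3K27ac class except in the widest mouse quintile. In the narrowest quintile in mouse, 34.4% of H3K4me3-only peaks had Otx2, against 42.1% of the H3K4me1 class and 76.7% of the H3K27ac class. In quintile 2 the shares were 75.1%, 69.6% and 86.4%, and in quintile 3 they were 87.1%, 82.0% and 93.6%. In 13LGS the narrowest quintile had 24.5%, 25.8% and 56.0%, quintile 2 had 44.2%, 37.9% and 68.5%, and quintile 3 had 62.6%, 54.5% and 78.3%. The differences from the H3K4me1 class, computed after the shares were seen, changed sign along the width. In mouse they were -7.78 points in the narrowest quintile (interval -12.2 to -3.21), 5.53 in quintile 2 (0.91 to 9.83) and 5.05 in quintile 3 (0.34 to 8.91). In 13LGS they were -1.29 (-4.51 to 1.95), 6.23 (2.35 to 10.1) and 8.17 (3.76 to 12.5). In the 2 widest quintiles of either species the interval held 0. Against the H3K27ac class every quintile had an interval below 0 except the widest in mouse, with 29 H3K4me3-only peaks, at -0.25 points (-14.0 to 2.94).

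**Figure D4:**
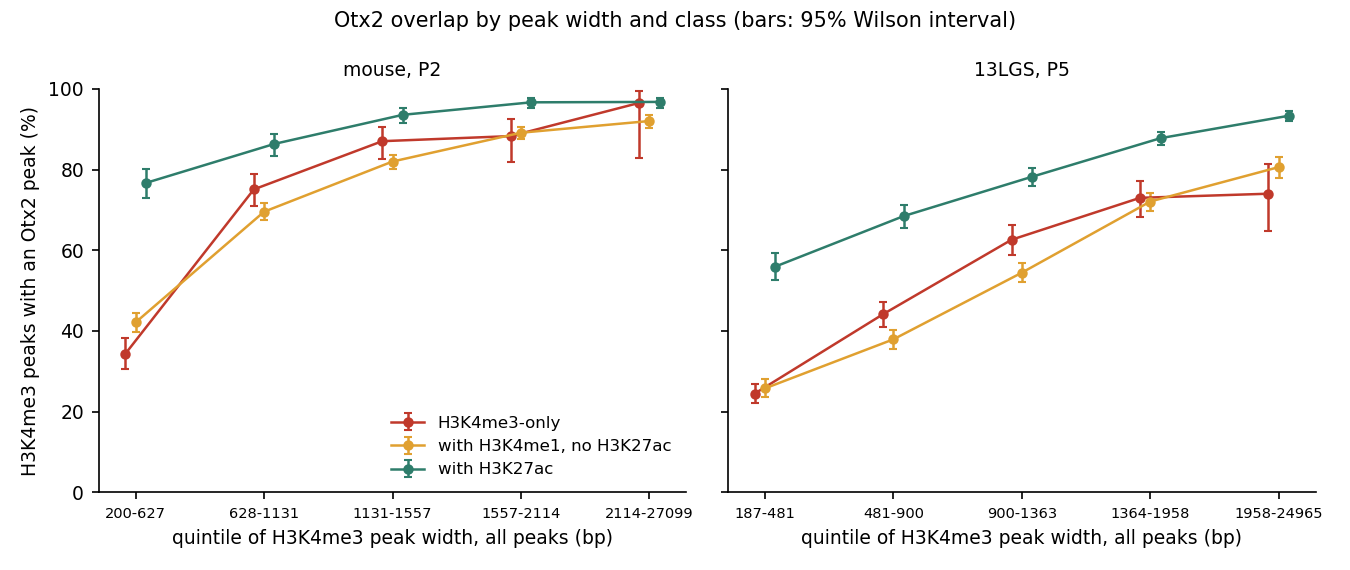
Percent of H3K4me3 peaks with an Otx2 peak, by quintile of H3K4me3 peak width over all peaks of the species (bp), for 3 classes, with 95% Wilson intervals. In mouse the H3K4me3-only class rises from 34.4% in the narrowest quintile to 87.1% in quintile 3, and the H3K27ac class is above it in quintiles 1 to 3 of both species.

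Otx2 summits at H3K4me3-only peaks lay close to the H3K4me3 summit. The median distance was 134 bp in mouse and 85 bp in 13LGS, against 234 and 141 bp in the H3K4me1 class and 239 and 163 bp in the H3K27ac class, and the narrower peaks leave less room. Relative to a coding start, the Otx2 summits of 615 members in mouse were centred 64 bp downstream (quartiles -134 to 169), upstream of the H3K4me3 summit's 182 bp.

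The letters of the Otx2 site were rare under these Otx2 peaks. Within 150 bp of the Otx2 summit, TAATCC or its reverse complement was present in 72 of 949 members (7.59%, interval 6.07 to 9.45). It was present in 7.74% of the H3K4me1 class, 9.53% of the H3K27ac class and 10.1% of peaks of 3000 bp or more, and in 25.6% of the 16502 Otx2 peaks outside any H3K4me3 peak (18.2% of all 29115). In 300-base promoter windows at large, whether marked or not, 7.06% held it. Of windows overlapped by an H3K4me3-only peak and no other H3K4me3 peak 5.30% held it, and of those of the other classes 4.79%. The G and C content at these summits was 61.3% in members and 49.7% outside H3K4me3 peaks. The low share was common to all H3K4me3 classes.

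The highest Otx2 folds among mouse H3K4me3-only peaks were at *Tysnd1*, a peroxisomal protease gene (14.8-fold), at *Gm26901* (14.4-fold), at the start shared by *Cyhr1* and *Kifc2* (13.8-fold), at *Atraid* and *Slc5a6* (13.3-fold), at *Eif2s3y* (13.1-fold) and at *Pemt*, of phosphatidylcholine synthesis (13.0-fold). The 8th, at 11.4-fold, was an intergenic peak with a tRNA gene near (chr5:149229167-149229896). Within 150 bp of the Otx2 summit, TAATCC was in 6 of the 50 members with the highest Otx2 fold (12%), against 7.59% of all 949 with Otx2. The 101 bases around the summit, a narrower window, are shown for *Tysnd1* and *Pemt* (GRCm38, plus strand). TAATCC has no match there on either strand, nor in that window at any of the 7 Otx2 summits of these 8 peaks. The 2 peaks at *Gm26901* overlap the same Otx2 peak.
Tysnd1, chr10:61695222-61695322: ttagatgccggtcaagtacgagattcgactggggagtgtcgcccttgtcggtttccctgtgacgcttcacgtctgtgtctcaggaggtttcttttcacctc
Pemt, chr11:60046358-60046458: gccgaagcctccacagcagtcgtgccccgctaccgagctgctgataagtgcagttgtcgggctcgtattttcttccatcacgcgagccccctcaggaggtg

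Neurod1 was rare at H3K4me3-only peaks. In mouse 60 of 1503 had a Neurod1 peak (3.99%, interval 3.11 to 5.10), against 8.2% of all H3K4me3 peaks. In 13LGS 55 of 3456 had one (1.59%, interval 1.22 to 2.07), against 4.35% of all. Against the H3K4me1 class the difference was -0.82 points in mouse (interval -1.82 to 0.38) and -0.57 in 13LGS (interval -1.08 to 0.0025) with both intervals holding 0, and against the H3K27ac class it was -10.7 and -5.82. Most members with Neurod1 also had Otx2, 58 of 60 in mouse and 48 of 55 in 13LGS. Otx2 was at 78.6% and 62.9% of all H3K4me3 peaks. Its share over all H3K4me3 peaks with Neurod1 was not computed, so this cannot be read as particular to the group.

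The highest Neurod1 fold in a mouse member was 18.7, at chr4:136945745-136945985, a 241 bp peak of only 2.99-fold for H3K4me3. The Neurod1 summit lay outside this peak, 372 bp from the H3K4me3 summit, and another H3K4me3 peak was 361 bp away. Next were *Nhej1*, of DNA end joining (8.31-fold), *Sertad3* (6.39-fold), *Pgs1*, of cardiolipin synthesis (6.17-fold), *Tonsl* (5.67-fold), *Rdh13*, a retinol dehydrogenase gene (5.19-fold), the start of *Slc35b1* and *Gm29477* (4.96-fold) and *Gm960* (4.85-fold). Within 150 bp of the Neurod1 summit, 19 of 60 members (31.7%) held CAGATG, against 34.2% in the H3K4me1 class, 34.4% in the H3K27ac class and 58.5% of Neurod1 peaks outside H3K4me3 peaks. The other E-box, CAGCTG, was in 24 of 60 (40.0%) and in 41.1% of those outside. The sequences around the summits at *Nhej1* and *Sertad3* (GRCm38, plus strand) show a CAGATG and a CAGCTG in capitals, the first on the minus strand.
Nhej1, chr1:75124771-75124871: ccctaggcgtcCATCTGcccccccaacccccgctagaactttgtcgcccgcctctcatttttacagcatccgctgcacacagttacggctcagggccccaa
Sertad3, chr7:27473499-27473599: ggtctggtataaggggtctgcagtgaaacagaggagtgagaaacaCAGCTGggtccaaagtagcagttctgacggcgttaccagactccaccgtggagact

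In 13LGS the highest Otx2 folds among H3K4me3-only peaks were 11.8 at Itri16:11308879-11311016, 11.4 at Itri16:1417335-1418621 and 11.2 at Itri16:21990555-21991624, and 4 of the top 8 were on Itri16. The highest Neurod1 fold was 6.85, at Itri5:172756460-172758142, where Otx2 reached 7.01-fold and H3K4me3 18.1-fold. The difference in share between the species was 18.8 points for Otx2 (mouse higher, interval 15.8 to 21.7) and 2.40 points for Neurod1 (interval 1.40 to 3.57). All H3K4me3 peaks moved the same way (78.6% against 62.9% for Otx2). The 13LGS histone lists rest on 1 library each and the mouse lists on 2, and the Otx2 lists hold unlike mixes of the same antibodies. The part of these in the difference was not tested.

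Taken as a whole, mouse H3K4me3-only peaks were close to other H3K4me3 peaks in sequence composition, but this mixes unlike parts. In the 300 bases around the summit their median G and C content was 62.7% and their CpG ratio 0.74, against 63.7% and 0.73 for the other peaks. Members at a start had a CpG ratio of 0.78, against 0.75 for other peaks with a start. The 299 members with neither a start nor a tRNA gene had 0.28, against 0.46 for all other peaks without a start. In the surroundings of all members, 5000 bp on each side, G and C content was slightly higher, 47.2% against 46.2% for other H3K4me3 peaks. Repeats marked by soft masking made up 28.7% of that flank on average, against 24.4% for other H3K4me3 peaks.

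RefSeq promoter windows gave a finer view of the letters at starts. Of 32851 windows of 300 bases, 1094 were overlapped by an H3K4me3-only peak and no other H3K4me3 peak, and 11301 by another class. The ETS family letters CCGGAAGT were in 140 of the 1094 (12.8%, interval 10.9 to 14.9), against 8.42% of windows of the other classes (difference 4.38 points, interval 2.46 to 6.55) and 3.89% of all windows. NF-Y's CCAAT was in 41.1% against 37.5% (interval of the difference 0.62 to 6.71) and 37.4% of all. The CREB family letters TGACGTCA were in 4.66% against 3.39% (interval 0.12 to 2.72) and 1.79% of all. In the H3K4me1 and H3K27ac classes the shares were 8.67% and 9.84% for ETS, 38.0% and 35.7% for CCAAT, and 3.49% and 3.27% for TGACGTCA. Differences from single classes were not tested. The other 8 motifs searched had intervals against the pooled other classes that hold 0: NRF1's GCATGCGC (7.13%, against 2.71% of all windows), GGGCGG of the SP and KLF family (67.4%, 35.7%), CACGTG (11.2%, 7.15%), YY1's AAGATGGC (5.39%, 2.75%), TATAAA (6.03%, 13.6%), the RFX letters GTTGCC (14.4%, 12.5%), TAATCC (5.30%, 7.06%) and CAGATG (9.41%, 17.2%). Both strands were searched, and no motif lies within another. In the 11 ciliary windows, 5 held the RFX letters.

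H3K4me3-only peaks in 13LGS often stood beside another H3K4me3 peak, which was seldom so in mouse. A second H3K4me3 peak lay within 2000 bp of 1422 of 3456 (41.1%) in 13LGS and of 159 of 1503 (10.6%) in mouse. This was a feature of the whole 13LGS list, where 37.8% of all H3K4me3 peaks had such a neighbour, against 13.8% in mouse. The gap was 539 bp at the median in 13LGS and 398 bp in mouse. The neighbour belonged to the H3K4me1 class for 641 members in 13LGS, to the H3K4me3-only group for 526 and to the H3K27ac class for 236. For 896 13LGS members (25.9%) and 98 mouse members (6.52%), the nearest H3K4me3 peak within 2000 bp thus carried the mark the member lacked or was 3000 bp wide or more.

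What lay in the gap differed between the species. Counted once per member with a close neighbour, an Otx2 peak reached into the gap for 50 of 159 in mouse (31.4%) and 63 of 1422 in 13LGS (4.43%). An H3K4me1 peak did so for 38 (23.9%) and 69 (4.85%), and an H3K27ac peak for 4 and 11. A gap between 2 members could be counted from both sides. Members with a close neighbour had a median fold of 4.64 in mouse, against 9.28 for the others, and of 7.03 in 13LGS, against 7.87.

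**Figure D5:**
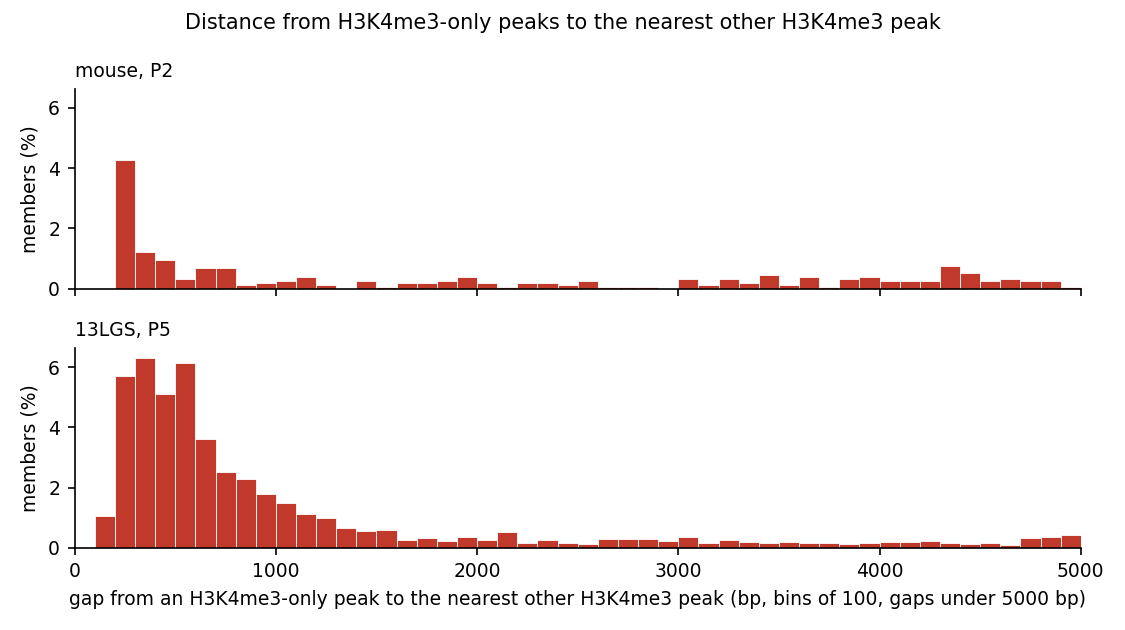
Gap in bp (bins of 100 bp, gaps under 5000 bp) from each H3K4me3-only peak to the nearest other H3K4me3 peak, as a percent of all members of the species. In 13LGS the bins from 200 to 599 bp hold 5.12% to 6.31% each, while in mouse only the bin from 200 bp reaches 4.26%.

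The share of H3K4me3 peaks that were H3K4me3-only varied by chromosome. Sequences with under 100 H3K4me3 peaks, such as mouse chromosome Y (2 of 4) and the small 13LGS scaffolds, were left out of these ranges. In mouse it ran from 4.25% on chromosome 16 (18 of 424) to 18.1% on chromosome 5 (162 of 893) and 17.2% on chromosome 11 (192 of 1118). In 13LGS it ran from 8.62% on Itri15 (25 of 290) to 41.7% on Itri16 (398 of 954) and 38.6% on Itri19 (61 of 158). Shares tended to be larger where there were fewer H3K4me1 peaks per H3K4me3 peak, with exceptions. Itri16 had 3.33 H3K4me1 peaks per H3K4me3 peak and Itri15 had 13.7, and mouse chromosome 11 had 6.58 and chromosome 16 had 12.4. Against this order, chromosome 5, with the largest mouse share, had 8.99, and Itri18, with the highest 13LGS ratio of 14.4, had a share of 21.1%. The Spearman correlation between the share and that ratio was -0.81 over 20 mouse chromosomes and -0.73 over 19 in 13LGS, given as a description because the ratio is made of the marks that define the group.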

How the data were processed

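CUT&RUN was performed on pooled P5 13LGS and P2 mouse retinas, 36 libraries in all. The authors trimmed reads (cutadapt 3.5, Trim Galore 0.6.4), aligned them with Bowtie2, filtered them by mapping quality (SAMtools 1.12), removed duplicates with UMI-tools and called peaks with MACS2 on all libraries of a target against IgG at a q-value of 0.05. Mouse peaks in blacklisted regions had been removed. Each deposited peak has a fold enrichment, a ratio of pooled signal to IgG, a −log10 q-value, and a summit position. These were used as deposited by the authors, with no rescaling, and depth is unknown. Coordinates are GRCm38 and HiC_Itri_2, 1-based.

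Overlaps needed a shared base of at least 1 bp and were computed with pandas 2.3.3 and numpy 2.4.6 (Python 3.11.15). On simulated data of 3522 intervals the result and that of bedtools 2.31.1 had 0 differences. Starts came from GENCODE M21, tRNA genes and sequence (read with pysam 0.24.0) from RefSeq GRCm38.p6, and plots from matplotlib 3.10.9. Shares have 95% Wilson intervals and differences of shares Newcombe intervals. The differences within quintiles of width or fold are weighted by the number of members and have normal intervals. No 13LGS annotation was used here. Peaks named are the 12 of highest fold, the 8 of highest Otx2 and of Neurod1 fold, the 8 strongest without a start, and list members by fold. Mouse chromosome 18 was counted but no peak on it is named, and a few other items are not reported here. Members, lists and tests were chosen with earlier results of these data known.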

Additional observations from a re-analysis of the deposited data

How the results depend on the processing

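No paired analysis was possible because each list pools its replicates into a single value per peak, and for the same reason no replicate could be left out. Requiring that no H3K27ac or H3K4me1 peak lie within 1000 bp left 926 H3K4me3-only peaks in mouse, and counting only H3K27ac and H3K4me1 peaks of −log10 q of at least 5 raised the number to 2810 in mouse and 5361 in 13LGS. The other alternatives for the number (100 bp of overlap, stricter H3K4me3 peaks, no width limit or 1500 bp, merging within 500 bp, chromosomes only) stayed within 1.5 times the reported counts. The share with Otx2 was 59.8% in mouse when the Otx2 summit had to lie inside, and 50.03% in mouse and 29.7% in 13LGS with Otx2 peaks of −log10 q of at least 5. With the same limit the Neurod1 share was 2.53% and 0.72%. The differences of Otx2 and Neurod1 from other H3K4me3 peaks kept their sign and excluded 0 in every alternative, those within quintiles for Neurod1 and, for starts, within quintiles of fold having been added after the data were seen. The share of mouse members with a start was 68.3% inside the peak, 76.4% within 500 bp, 86.0% within 5000 bp and 73.7% for protein-coding starts. Its difference was -0.47 points within quintiles of width and excluded 0 otherwise. The difference in GGGCGG from other H3K4me3 peaks, -1.63 points around the summit with an interval that holds 0, was -12.0 in whole peaks and 1.68 around the peak middle. The checks of the gene lists at other distances were also added after the data were seen. Without replicate values or depth, no difference here can be set against the spread between animals.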
